A study of Mus musculus with 42 samples.

Results

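The 75 genes described here are the small nucleolar RNAs (snoRNAs), the small Cajal body RNAs and the snoRNA host transcripts of mouse liver. They were taken by symbol: every gene listed in the table of KO obese against KO lean mice whose name starts with Snora (25 genes), Snord (36), Scarna (4) or Snhg (10), out of 19756 gene names found in any of the 6 tables. The rule used only the symbols and the listing, but it was set with earlier results of these data known. All 75 were also listed for KO obese against WT obese mice, 73 for WT obese against WT lean, 55 for KO obese+RvE1 against KO obese, 25 for KO lean against WT lean and 21 for WT obese+RvE1 against WT obese, and 21 were listed in all 6 tables. A further 40 names with these prefixes occurred only in other tables, the most abundant with a mean of 2.28 normalized counts over the KO obese and WT obese livers, and were not members.

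The livers came from 42 male C57BL/6J mice, 7 in each of 6 groups. Wild type (WT) littermates were compared with knockouts (KO) of Cmklr1, which encodes ChemR23, the receptor for the lipid mediator resolvin E1 (RvE1), made by CRISPR/Cas9. The groups were WT lean, KO lean, WT obese and KO obese mice given vehicle (ethanol in PBS), and WT obese and KO obese mice given 300 ng RvE1. From 6 weeks of age, lean mice ate a control diet and obese mice a high fat diet for 15 weeks; RvE1 or vehicle was then injected into the peritoneum on 4 days, and livers were taken on day 5. RNA came from whole liver, so no value below belongs to a single cell type.

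SnoRNAs guide chemical modification of other RNAs. Box C/D snoRNAs (Snord) pair with ribosomal RNA and direct fibrillarin to methylate a ribose, whereas box H/ACA snoRNAs (Snora) direct dyskerin to convert a uridine to pseudouridine. Small Cajal body RNAs (Scarna) do the same for spliceosomal RNAs. In mammals most are cut from introns of longer genes, many of which encode ribosomal proteins or translation factors, and the Snhg genes are host genes whose spliced transcript is mostly non-coding and in several cases unstable.

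The sequences of the members that lead the results or have the highest normalized counts per kilobase of exonic length are given so that their classes can be read directly. They come from GENCODE M21 on GRCm38 (mm10), 5′ to 3′ on the gene's strand. Capitals mark TGATG within the first 30 bases and CTGA within the last 25 bases in Snord members, the letters of the C and D boxes, and ACA within the last 15 bases in Snora members. Snora20 lies at chr17:12922790-12922917 on the plus strand, in an intron of Tcp1, which encodes a subunit of the TRiC chaperonin. Snora65 lies at chr2:32963291-32963420 on the plus strand within Rpl12, where annotated transcripts also place an exon, and Snora28 at chr12:111540941-111541067 on the plus strand within the translation factor gene Eif5, also over an exon. Snord104 lies at chr11:106500993-106501062 on the plus strand with no same-strand GENCODE M21 gene around it. Snord96a lies at chr11:48802032-48802112 on the plus strand within the ribosome scaffold gene Rack1, and Snord4a at chr11:78181686-78181756 on the minus strand in an intron of Rpl23a.
Snora20: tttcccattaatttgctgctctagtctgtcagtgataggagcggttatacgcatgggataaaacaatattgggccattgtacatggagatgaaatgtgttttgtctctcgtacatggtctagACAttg
Snora65: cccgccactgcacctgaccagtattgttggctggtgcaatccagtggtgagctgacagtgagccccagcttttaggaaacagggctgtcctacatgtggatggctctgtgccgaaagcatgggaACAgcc
Snora28: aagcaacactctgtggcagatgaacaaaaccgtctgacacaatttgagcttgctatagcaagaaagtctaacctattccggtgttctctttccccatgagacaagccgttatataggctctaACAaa
Snord104: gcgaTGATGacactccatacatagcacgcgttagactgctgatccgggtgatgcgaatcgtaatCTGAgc
Snord96a: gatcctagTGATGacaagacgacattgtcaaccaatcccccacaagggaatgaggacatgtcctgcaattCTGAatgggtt
Snord4a: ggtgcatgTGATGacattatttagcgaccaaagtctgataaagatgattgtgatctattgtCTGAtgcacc
For Scarna2, the member with the largest fall in the knockout diet comparison, the last 90 of its 414 bases are shown, chr3:108554338-108554427 on the minus strand. Capitals mark TGATG and the closing CTGA of this stretch.
Scarna2: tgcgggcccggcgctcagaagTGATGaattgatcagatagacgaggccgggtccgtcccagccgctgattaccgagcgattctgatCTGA

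The Snord and Snora classes are named for these boxes, so a split of the marked letters between them was given in advance. The counts only describe it. TGATG stood in the first 30 bases of 31 of 35 Snord sequences (Snord58b, on a chromosome left out of the sequence search, was not read) and of 0 of 25 Snora sequences, against 3.16% of all 141767 GENCODE M21 transcripts. CTGA stood in the last 25 bases of 34 of 35 Snord and 3 of 25 Snora sequences, against 11.7% of transcripts, and 30 of 35 Snord sequences held both, against 0.608%. ACA stood in the last 15 bases of 23 of 25 Snora and 5 of 35 Snord sequences, against 21.6%. Only the sense strand was searched, these are letter matches, and a missing match says only that the letters are not in that window. Of the 65 Snora, Snord and Scarna members, 57 lay within a named GENCODE M21 gene on the same strand (46 hosts), 27 of them wholly in introns and 30 over an annotated exon of some host transcript. Ribosomal protein genes made up 18 of the hosts and held 22 members, 7 members lay within Snhg genes, 2 lay only within predicted gene models, and 6 (Scarna2, Scarna17, Snora17, Snora43, Snord104 and Snord118) lay in no same-strand gene of that annotation. Snora17 and Snora43 lie within the span that RefSeq gives Snhg7 on GRCm38 (chr2:26637176-26640244, strand not listed there), which GENCODE M21 does not hold under that symbol, so they are not among the 7.

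Gene counts summed to between 15992556 and 43841273 reads per library, with a median of 24298307. The knockout was visible in every table that held both genotypes: Cmklr1 ranged over 40.8-114 normalized counts in WT lean against 9.72-22.6 in KO lean livers, and over 33.3-102 in WT obese against 5.08-23.2 in KO obese livers. The 6 hepatocyte markers summed to 785426 or more normalized counts in every library, whereas the acinar pancreas markers listed, Cpa1 and Ctrb1, were too low to test. The numbers that open the mouse identifiers, whose meaning the labels do not give, were with 1 exception found in 1 group only. Group and number therefore cannot be told apart, except in part for RvE1 in KO obese mice, where number 23 occurs in both groups.

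Members were scarce in these libraries. In the 14 KO lean and KO obese livers together, the 75 members took between 0.00633% and 0.0102% of the reads on listed genes. Read numbers were carried by the host transcripts: the 10 Snhg genes held 64.4% of the summed mean normalized count, Snord members 17.2%, Snora members 16.5% and Scarna members 1.84%. Mean normalized counts ran from 7.34 to 501.9 in the Snhg class (median 98.0), from 2.26 to 89.1 in the Snora class (median 7.26), from 2.59 to 105 in the Snord class (median 4.58) and from 3.26 to 19.9 in the Scarna class. A mean of 5 over the 14 libraries of a table was required for testing, which 48 of the 75 members met in this table: 10 of 10 Snhg, 20 of 25 Snora, 16 of 36 Snord and 2 of 4 Scarna. Scarna6, in Atg16l1, was among those below it, with a mean of 4.62.

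**Figure D1:**
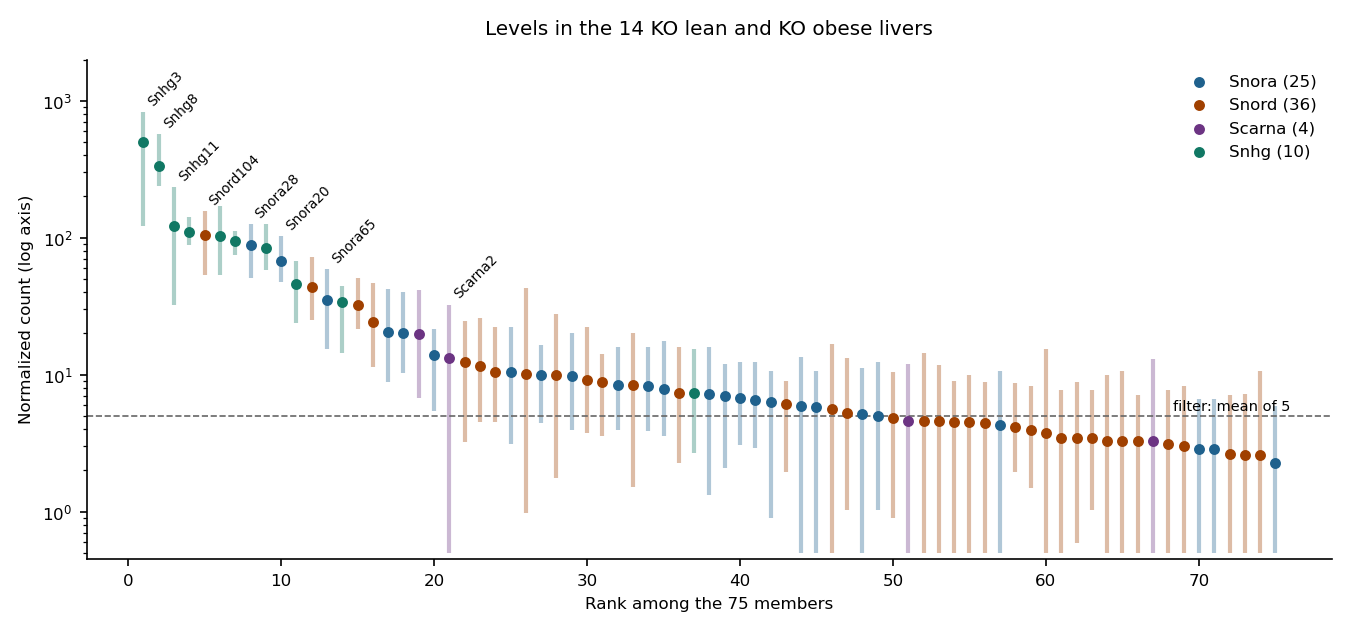
Mean normalized count (log axis) of each of the 75 members in the KO lean and KO obese livers, ordered by level and coloured by class; vertical bars span the lowest to highest of the 14 libraries, and a library at 0 is drawn at the lower end of the axis. The values are not divided by gene length, so the order is one of reads; the dashed line is the filter at a mean of 5, below which most Snord members fell.

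Because Snhg transcripts are far longer than snoRNAs (median exonic length 1438 bases against 77.5 for Snord and 132 for Snora members), levels are also given per length. Per kilobase of exonic length in the same 14 libraries, the order of mean levels was Snord104 (1502 normalized counts per kilobase), Snora28 (701), Snord96a (541.5), Snora20 (532), Snhg3 (509), Snord4a (455), Snhg8 (394), Snora65 (270) and Scarna17 (252), while Snhg6 reached 89 and Snhg11 14.3. Snord96a, Snora20 and Snhg3 differed by less than the spread of any of them between mice. Reads over a snoRNA can also come from unspliced host RNA or from a host exon that overlaps it. Mature snoRNA and host RNA therefore cannot be told apart in these counts, least of all for the 30 members that overlap an annotated exon. A read pair that overlaps a gene only in part can still count for it, which raises values per kilobase most for the shortest genes. The exonic lengths of Snhg1 and Snhg12 (2969 and 2402 bases) span their whole genes. The order per kilobase therefore does not rank RNA amounts.

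Loss of ChemR23 in lean mice was accompanied by higher levels of 3 members and a lower level of 1. Snhg3 and Snhg6, both snoRNA host transcripts, and Scarna2, a Cajal body RNA of the C/D type, rose in KO lean livers, and Snora20 fell. These 4 of the 25 members tested (7 Snora, 7 Snord, 2 Scarna and 9 Snhg) passed the call used throughout (Benjamini-Hochberg adjusted p under 0.1 over all genes in limma and a fold above 1.5 on the log2(normalized count + 1) scale), against 6.65% of all 13031 genes tested. The 3 higher members stood against 3.94% of genes called higher and the 1 lower against 2.7% called lower. In the same livers the summed Kupffer cell markers were 6045-13523 normalized counts in KO lean against 2580-5958 in WT lean mice. Their part in the member changes was not tested, and in whole liver fewer cells of a type and less RNA per cell cannot be told apart.

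Snora20 ranged over 43.1-64.9 normalized counts in KO lean mice with a median of 55.1, and over 79.7-95.1 in WT lean mice with a median of 85.7. Every KO lean liver lay below every WT lean liver, a separation that 97 of the 13027 genes with a unique name showed (0.745%). The means were 54.9 ± 6.66 and 86.9 ± 6.37 (SD, n = 7 each), a log2 fold change of -0.66 with a standard error of 0.115 (limma adjusted p = 0.0247). Its host Tcp1 had a log2 difference of -0.23 in the same livers and did not pass the test (limma adjusted p = 0.106). Within groups Snora20 and Tcp1 correlated over the 14 livers with r = 0.82 on the log2 scale. The median r over the 12 snoRNA and host pairs of this comparison was 0.21 (range -0.27 to 0.87), and none was tested. No other of the 25 members had groups that did not overlap.

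Snhg3, the most read member (chr4:132348014-132353686, minus strand, 986 exonic bases), ranged over 354-751 normalized counts in KO lean livers (median 615) and 147-424 in WT lean livers (median 194). The groups overlapped, with 5 of 7 KO livers above the highest WT liver. The means were 572 ± 155 and 241 ± 102 (SD, n = 7 each), a log2 fold change of 1.29 with a standard error of 0.235 (limma adjusted p = 0.0302). Scarna2 ranged over 7.91-29.4 in KO lean (median 16.9) and 3.64-15.2 in WT lean livers (median 7.25), with a log2 fold change of 1.00 and a standard error of 0.336 (limma adjusted p = 0.0731). These counts rest on 3 to 43 reads per library, and 4 KO livers exceeded every WT liver. Snhg6 (chr1:9941959-9944118, minus strand, 1146 exonic bases) ranged over 67.6-155 normalized counts in KO lean (median 128) and 47.3-109 in WT lean livers (median 76.5), with a log2 fold change of 0.60 and a standard error of 0.221 (limma adjusted p = 0.0973). The groups overlapped, with 5 KO livers above the highest WT liver.

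Snhg8 was the next member by adjusted p and missed the fold threshold. It ranged over 249-515 normalized counts in KO lean livers (median 302) and 164-305 in WT lean livers (median 211), a log2 difference of 0.57 with a standard error of 0.175 (limma adjusted p = 0.0590). Snord104, the snoRNA with the highest normalized count per kilobase, had a log2 difference of 0.45 (limma adjusted p = 0.119) and Snhg12, which holds Snora16a, Snora44, Snora61 and Snord99, one of 0.30 (adjusted p = 0.130). Snora81 (-0.62, adjusted p = 0.151) and Scarna17 (-0.75, adjusted p = 0.182) had differences below 0 that did not pass, and Snora28 (-0.06, adjusted p = 0.862) and Snord4a (-0.15, adjusted p = 0.765), both well covered, lay near 0. The summed Snhg level was 1447 ± 276 in KO lean against 940 ± 219 in WT lean livers (SD, n = 7 each). Much of that difference lay in Snhg3, whose means are given above. The Snora, Snord and Scarna members listed in that table summed to 495 ± 47.8 and 494 ± 57.7. Within that sum the classes differed in opposite directions, with overlapping ranges. Snora members summed to 227 ± 36.3 in KO lean and 266 ± 32.0 in WT lean livers, and Snord members to 236 ± 27.2 and 196 ± 49.7.

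**Figure D2:**
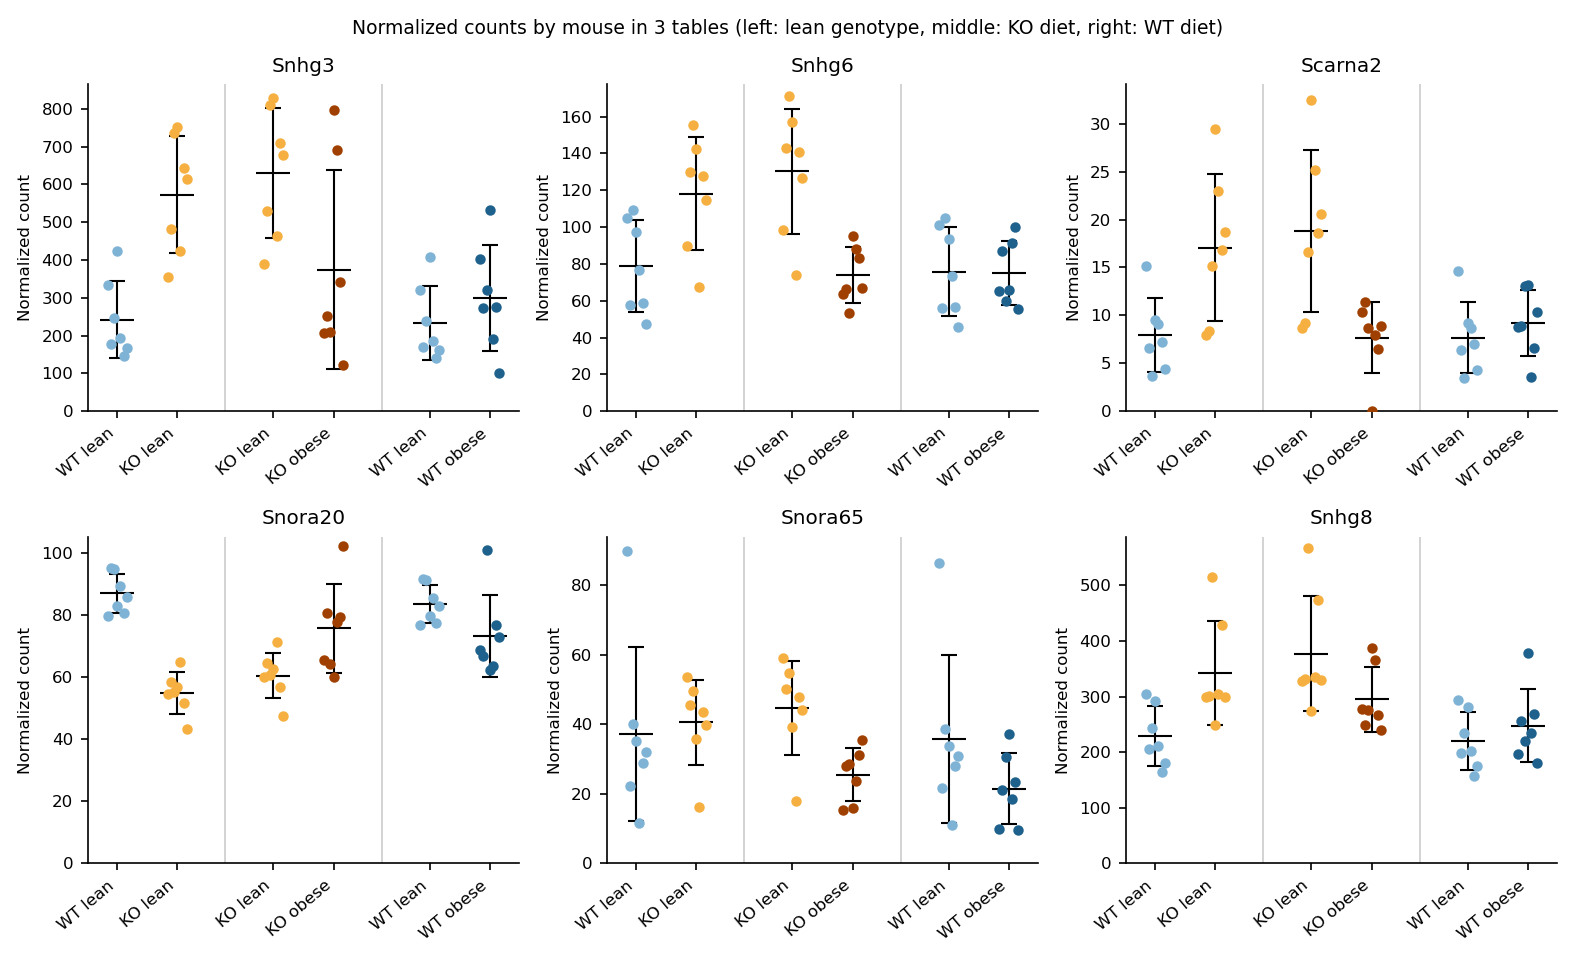
Normalized counts of 6 members in each mouse (points), with mean and SD bars (n = 7 per group), in the tables of lean genotype (left), KO diet (middle) and WT diet (right of each panel); values are comparable only within a table. KO lean livers lie below all WT lean livers for Snora20 (43.1-64.9 against 79.7-95.1), while the other members overlap between groups.

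Not every one of these calls held in all settings. Snhg3 and Snora20 were called in 8 of 9 other settings and in 14 of 14 fits that left out 1 mouse, and lost the call only when the number opening the identifier was a random block (adjusted p = 0.138 and 0.122, the highest over their settings, the lowest being 0.000167 and 0.000327). Scarna2 was called in 6 of 14 leave-one-out fits (adjusted p 0.0461-0.150): it lost the call without WT lean mouse 21L, 21R, 26R or 8R, or KO lean mouse 20-2L, 20L, 9L or 9RL, and after a length and GC correction (0.77, adjusted p = 0.155). Snhg6 was called in 5 of 14 (adjusted p 0.0247-0.191): it lost the call without WT lean mouse 21L, 26R, 8RL or 8R, or KO lean mouse 14RL, 20-2L, 20L, 9L or 9RL, and also under equal read totals (log2 difference 0.48, adjusted p = 0.184), after the same correction (0.26, adjusted p = 0.294), with a pseudocount of 4 (0.58, under the fold threshold) and with the random block (adjusted p = 0.220). Snora81 gained a call after the length and GC correction.

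In knockout mice the high fat diet was accompanied by lower levels of 4 members and higher levels of 0. Snhg6, Snhg3, Scarna2 and Snora65 fell in KO obese livers, 4 of 48 members tested against 10.4% of all 14213 genes tested, with 5.42% of genes called lower and 4.97% called higher. This comparison shares its 7 KO lean livers with the lean genotype comparison, so a member that was high in KO lean livers enters both, and the values are given side by side without a measure of their likeness. The summed Kupffer cell markers were 3777-5203 normalized counts in KO obese against 6636-14913 in KO lean livers, and their part in the member changes was not tested.

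Snhg6 ranged over 53.1-95.3 normalized counts in KO obese livers (median 66.7) and 74.2-171 in KO lean livers (median 141). The means were 73.8 ± 15.3 and 130 ± 33.8 (SD, n = 7 each), a log2 fold change of -0.79 with a standard error of 0.188 (limma adjusted p = 0.0147). The groups overlapped, with 4 KO obese livers below the lowest KO lean liver. Its call held in 9 of 9 other settings and in 14 of 14 leave-one-out fits.

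Snhg3 ranged over 121-797 normalized counts in KO obese livers (median 251) and 390-828 in KO lean livers (median 678), a log2 fold change of -0.99 with a standard error of 0.347 (limma adjusted p = 0.0632). The KO obese livers were spread widely: mice 23L and 31L, at 797 and 691, stood within the KO lean range and the other 5, from 121 to 340, below it. The call was kept in 7 of 14 leave-one-out fits (adjusted p 0.0167-0.131). It was lost without KO lean mouse 20-2L, 20L or 9L or KO obese mouse 10-2L, 10RL, 10R or 31R, in edgeR (adjusted p = 0.134) and with the identifier number as random block (adjusted p = 0.224).

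Scarna2 ranged from 0 to 11.4 normalized counts in KO obese livers (median 8.72) and over 8.70-32.5 in KO lean livers (median 18.6), a log2 fold change of -1.36 with a standard error of 0.490 (limma adjusted p = 0.0701), and 3 KO obese livers lay below the lowest KO lean liver. The 0 came from mouse 23L, where a count of 0 reads allows up to 3 reads or 5.29 normalized counts, counting error only. The call was lost without KO lean mouse 20L, 9L or 9RL (adjusted p 0.109-0.132), under equal read totals (adjusted p = 0.107), after the length and GC correction (-1.06, adjusted p = 0.174) and with the random block (-1.50, adjusted p = 0.127; range over the settings 0.0105-0.174). Snora65, an H/ACA snoRNA of Rpl12, ranged over 15.4-35.6 in KO obese (median 27.9) and 17.8-59.0 in KO lean livers (median 47.9), a log2 fold change of -0.77 with a standard error of 0.262 (limma adjusted p = 0.0577). It lost the call without KO lean mouse 14RL, 20-2L or 9L or KO obese mouse 10-2L (adjusted p 0.101-0.107), under equal read totals (adjusted p = 0.166) and with the random block (adjusted p = 0.142). The groups overlapped for both members.

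The remaining members did not move in one direction. Of the 48 tested, 30 had a log2 difference above 0 and the median was 0.15, against a median of -0.00 over all genes tested. The member median was 0.06 without KO obese mouse 31R, 0.08 without KO obese mouse 31L or KO lean mouse 9L, and 0.09 without KO lean mouse 9RL. Snord69 (0.91, limma adjusted p = 0.139), Snhg11 (0.75, adjusted p = 0.199) and Scarna17 (0.62, adjusted p = 0.203) had the highest differences among the members named here, and Snora20 one of 0.31 (adjusted p = 0.146), with 60.0-102 normalized counts in KO obese against 47.5-71.2 in KO lean livers. Snord22, which lies within Snhg1, had a difference of -0.64 (adjusted p = 0.118) and Snhg8 one of -0.33 (adjusted p = 0.165). The summed Snhg level was 1276 ± 304 in KO obese and 1599 ± 304 in KO lean livers (SD, n = 7 each), and the summed Snora, Snord and Scarna level 804 ± 114 and 786 ± 69.4.

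**Figure D3:**
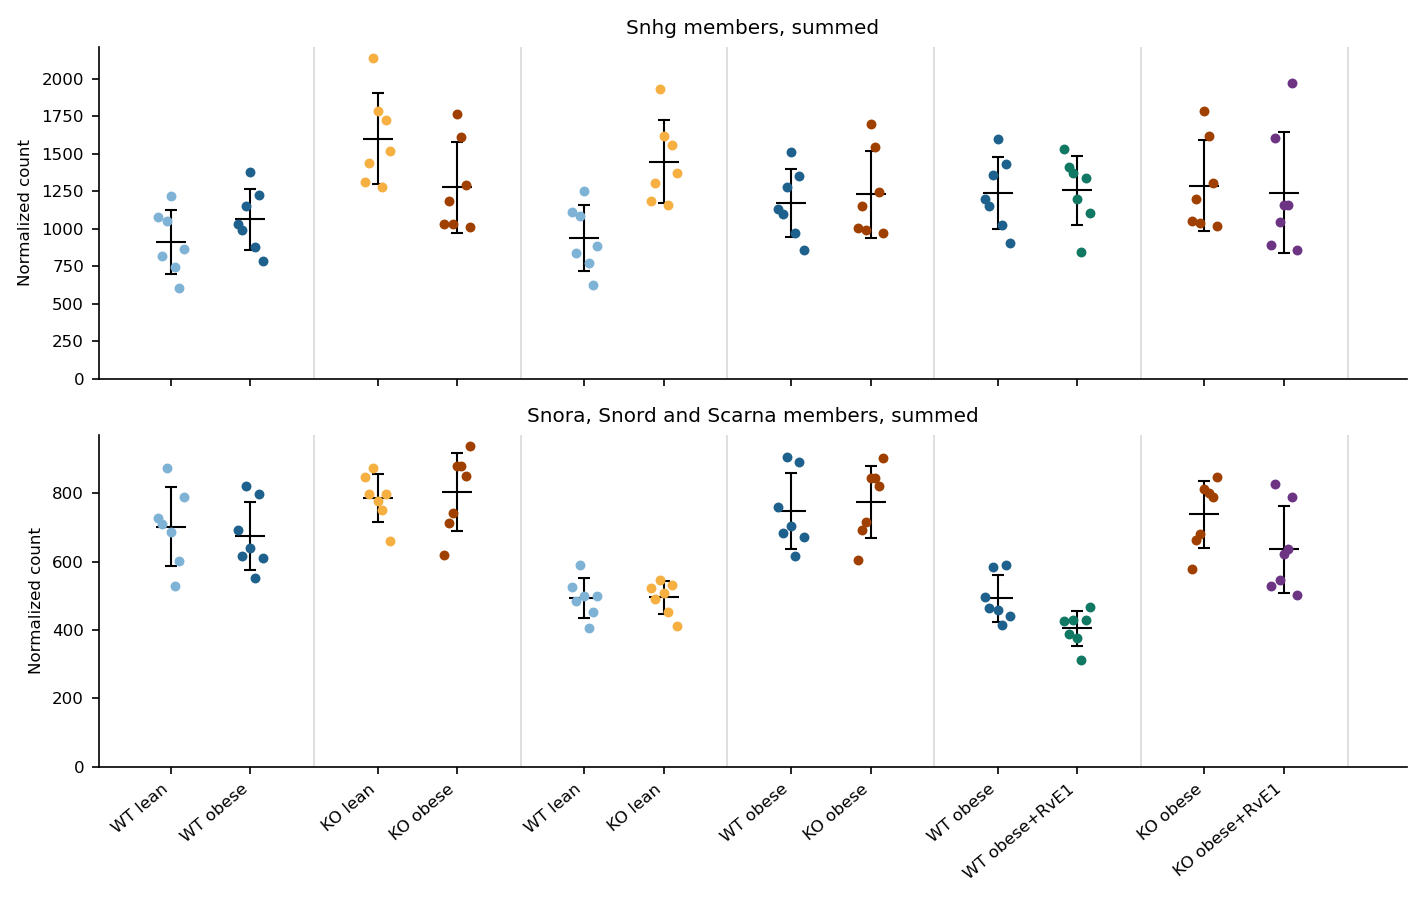
Summed normalized counts of the Snhg members (top) and of the Snora, Snord and Scarna members (bottom) in each mouse, with mean and SD bars (n = 7 per group); grey lines separate the 6 tables, which list different numbers of members and are not comparable with each other. Snhg sums were highest in KO lean livers in both tables that hold them (means 1599 and 1447). The sums of the small RNAs were close between lean genotypes (495 and 494), with mean Snora sums lower and mean Snord sums higher in KO lean livers. The small RNA sums were lower after RvE1 in WT obese mice (405 against 493), with overlap.

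In wild type mice 0 of 45 members tested passed the call with diet, against 3.80% of all 14012 genes tested, and 0 of the 45 had an unadjusted p under 0.05 in limma, edgeR or DESeq2. Snhg6 ranged over 55.4-100.3 normalized counts in WT obese and 45.7-105 in WT lean livers (log2 difference 0.02, limma adjusted p = 0.980). Snhg3 had a log2 difference of 0.30 (adjusted p = 0.666), Scarna2 of 0.26 (adjusted p = 0.732), Snora20 of -0.20 (adjusted p = 0.414) and Snora65 of -0.62 (adjusted p = 0.411). The smallest adjusted p values upward were those of Snhg12 (0.28, adjusted p = 0.320) and Snhg7 (0.30, adjusted p = 0.593). For Snora65 the direction was that of the knockout comparison, with 9.66-37.2 in WT obese and 11.2-86.4 in WT lean livers.

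Whether the diet effect itself differed between genotypes was tested as an interaction over the 28 livers. The difference of the log2 fold changes, KO minus WT, was 0.51 for Snora20 (limma adjusted p = 0.146), -0.80 for Snhg6 (adjusted p = 0.155), -1.62 for Scarna2 (adjusted p = 0.169), -1.30 for Snhg3 (adjusted p = 0.176) and 0.95 for Scarna17 (adjusted p = 0.218). None of the 45 members tested passed an adjusted p under 0.1. An unadjusted p under 0.05 in limma was found for 7 of them and for 2553 of all 13924 genes. EdgeR and DESeq2 also called 0 members. The background was 1 of 13924 genes (0.00718%) in limma and 926 in DESeq2. Leaving out 1 liver could change the count: without KO lean mouse 20R 1847 genes passed, Snhg6 and Snora20 among them, and without WT obese mouse 22L 966 genes and 0 members passed.

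Between obese KO and obese WT mice, 0 of 51 members tested were called, against 2 of 14162 genes (0.0141%), and edgeR and DESeq2 also called 0 members. An unadjusted p under 0.05 in limma was found for 319 of all genes and for 2 members, Snora61 with a log2 difference of 0.73, an H/ACA snoRNA within Snhg12, and Snord91a with -0.47, a C/D snoRNA in Tsr1. Snora61 ranged over 6.01-13.5 normalized counts in KO obese and 2.46-10.6 in WT obese livers, and Snord91a over 8.01-13.6 and 10.6-20.6, with overlap in both. By unadjusted p, Snord19 (0.89) and Snora5c (-0.56) came next in each direction. Snhg3, called in both other knockout comparisons, had a log2 difference of -0.00 here, Snhg6 of -0.21 and Scarna2 of -0.60 (limma adjusted p = 1.00 for every member).

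Treatment with RvE1 was followed by no called member in either genotype. In WT obese mice 0 of 21 and in KO obese mice 0 of 50 members tested passed, as did 0% of the 13085 and 14207 genes tested in limma. An unadjusted p under 0.05 was found in limma for 2 and 5 members, against 795 and 1179 of all genes. EdgeR called 1 and 0 genes and DESeq2 15 and 14, and neither called a member.

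In WT obese mice Snora31, an H/ACA snoRNA in an intron of Tpt1, ranged over 5.98-15.8 normalized counts with RvE1 (median 14.1) and 11.8-35.2 with vehicle (median 21.9), a log2 difference of -0.76 (limma adjusted p = 0.772). Snora81, within Eif4a2, had a log2 difference of -0.68 (limma adjusted p = 0.772). Both overlapped between groups. The highest differences upward were those of Snhg3 with 0.29 (limma adjusted p = 0.969) and Snhg8 with 0.22 (adjusted p = 0.917).

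In KO obese mice Scarna17 ranged over 5.71-17.6 normalized counts with RvE1 (median 13.9) and 14.6-30.4 with vehicle (median 24.3), a log2 difference of -0.79 (limma adjusted p = 0.557), with 4 treated livers below every control. Snora33, within Rps12, ranged over 1.16-7.33 with RvE1 and 5.25-12.5 with vehicle, a log2 difference of -0.95 (limma adjusted p = 0.557). Upward, Snhg10 had a log2 difference of 0.54 (limma adjusted p = 0.691) and Scarna2 one of 0.52 (adjusted p = 0.80).

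Most members lay below 0 after RvE1. In KO obese mice 42 of 50 had a negative log2 difference (17 of 19 Snora, 16 of 19 Snord, 1 of 2 Scarna and 8 of 10 Snhg) with a median of -0.31, against -0.01 over all genes, and in WT obese mice 17 of 21 with a median of -0.17. The WT median was -0.04 without WT obese+RvE1 mouse 7L and -0.08 without WT obese mouse 6RL. After a correction for gene length and GC content the medians were -0.10 and -0.08, and 16 rather than 8 of the 50 members in KO obese mice stood above 0. Of the host genes 33 of 41 lay below 0 after RvE1 in KO obese and 30 of 41 in WT obese mice, and of all genes 7312 of 14207 and 6381 of 13085. The KO obese livers given vehicle also enter the knockout diet and obese genotype comparisons, where 30 of 48 and 33 of 51 members lay above 0. The summed Snora, Snord and Scarna level was 636 ± 127 with RvE1 and 738 ± 98.5 with vehicle in KO obese mice, and 405 ± 50.0 and 493 ± 68.9 in WT obese mice (SD, n = 7 each), with overlapping ranges in both. No single difference passed the test, and the RvE1 effect did not differ between genotypes for any of the 21 members tested in both (0 at an adjusted p under 0.1 in limma, edgeR or DESeq2, and 0 at an unadjusted p under 0.05 in limma, with 0% of 13059 genes called).

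**Figure D4:**
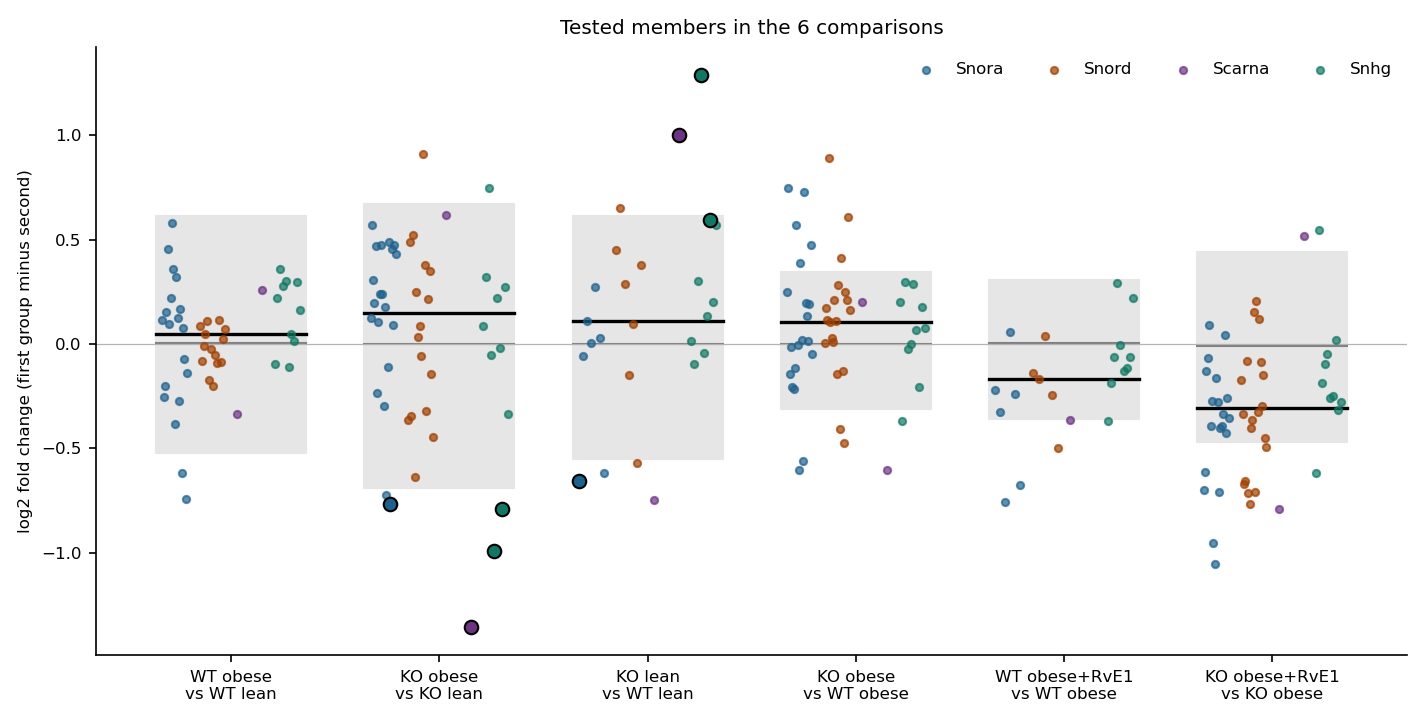
Log2 fold change (first group minus second) of each tested member in the 6 comparisons, coloured by class; large outlined points are called members, black lines the member medians, grey lines the medians of all genes tested and grey boxes the 5th to 95th percentile of all genes. Called members appear in 2 comparisons, 4 in each, and the member median is lowest after RvE1 in KO obese mice (-0.31).

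SnoRNAs and their GENCODE M21 hosts were set side by side wherever both passed the filter. In the knockout diet comparison 32 snoRNAs could be paired with 26 hosts, and 19 of the pairs had log2 differences of the same sign. In KO obese mice given RvE1 27 of 34 pairs did, in WT obese mice given RvE1 9 of 10, in lean KO against lean WT mice 8 of 12, in the wild type diet comparison 15 of 29 and between obese genotypes 19 of 35. Several pairs share a host, so the pairs are not independent. Whether reads that overlap both a host and its snoRNA were counted for both genes or for neither is not given in the sources used here.

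Hosts that fell with diet in knockout mice held snoRNAs that did not pass the test or the filter. Rack1, listed under its older symbol Gnb2l1, fell from 5087-11220.1 normalized counts in KO lean (median 7497) to 2708-5007 in KO obese livers (median 3482), groups that did not overlap (as for 2.1% of 14209 genes with a unique name), with a log2 fold change of -1.04 and a standard error of 0.177 (limma adjusted p = 0.00351). Snord96a, within it, had a log2 difference of -0.14 and Snord95, also within it, one of 0.35 (limma adjusted p = 0.742 and 0.439). Rpl13a, host of Snord32a and Snord35a, fell by 1.25 on the log2 scale (adjusted p = 0.00322), Rpl39, host of Snora69, by 0.89 (adjusted p = 0.0163), Rps3, host of Snord15b, by 0.81 (adjusted p = 0.00592), Eef1b2, host of Snora41, by 0.66 (adjusted p = 0.00813) and 2410006H16Rik, host of Snord49a, by 0.68 (adjusted p = 0.0526), each in limma. Of these inner snoRNAs only Snord15b (mean 5.59 normalized counts) and Snora41 (5.18) passed the filter, with log2 differences of 0.49 and 0.24 that were not called. In all 6 of 41 hosts tested were called lower and 0 higher in KO obese livers, against 5.42% of all genes called lower and 4.97% called higher. In the lean genotype comparison 2 of 40 hosts were called, Rpl13a (1.01, limma adjusted p = 0.0357) and Rpl39 (0.75, adjusted p = 0.0446), both higher in KO lean livers, against 6.65% of all genes called and 3.94% called higher. In the other comparisons 0 hosts were called.

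Where a snoRNA was called, its host had a difference of the same sign that did not pass. Rpl12, host of Snora65, had a log2 difference of -0.38 with diet in knockout mice (limma adjusted p = 0.0685, below the fold threshold), and Tcp1, host of Snora20, one of -0.23 between lean genotypes. Within groups Snora65 and Rpl12 correlated with r = 0.11 in the knockout diet comparison, where the median over 32 pairs was 0.12. Between lean genotypes r was 0.87 for Snora65 and Rpl12 and 0.82 for Snora20 and Tcp1. Gnl3, host of Snord19 and Snord69, had a difference of 0.41 with diet in knockout mice (limma adjusted p = 0.0883, below the fold threshold), beside 0.91 for Snord69, and one of -0.55 between lean genotypes (adjusted p = 0.0340, below the fold threshold, without overlap of the groups, as for 0.745% of genes with a unique name). The hosts Snhg3 and Snhg6 hold none of the 75 members, so no pair could be formed for them. Snora17 and Snora43, within the RefSeq span of Snhg7, were not counted as pairs. With diet in knockout mice their log2 differences were 0.57 and -0.30, beside 0.27 for Snhg7, none of them called.

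**Figure D5:**
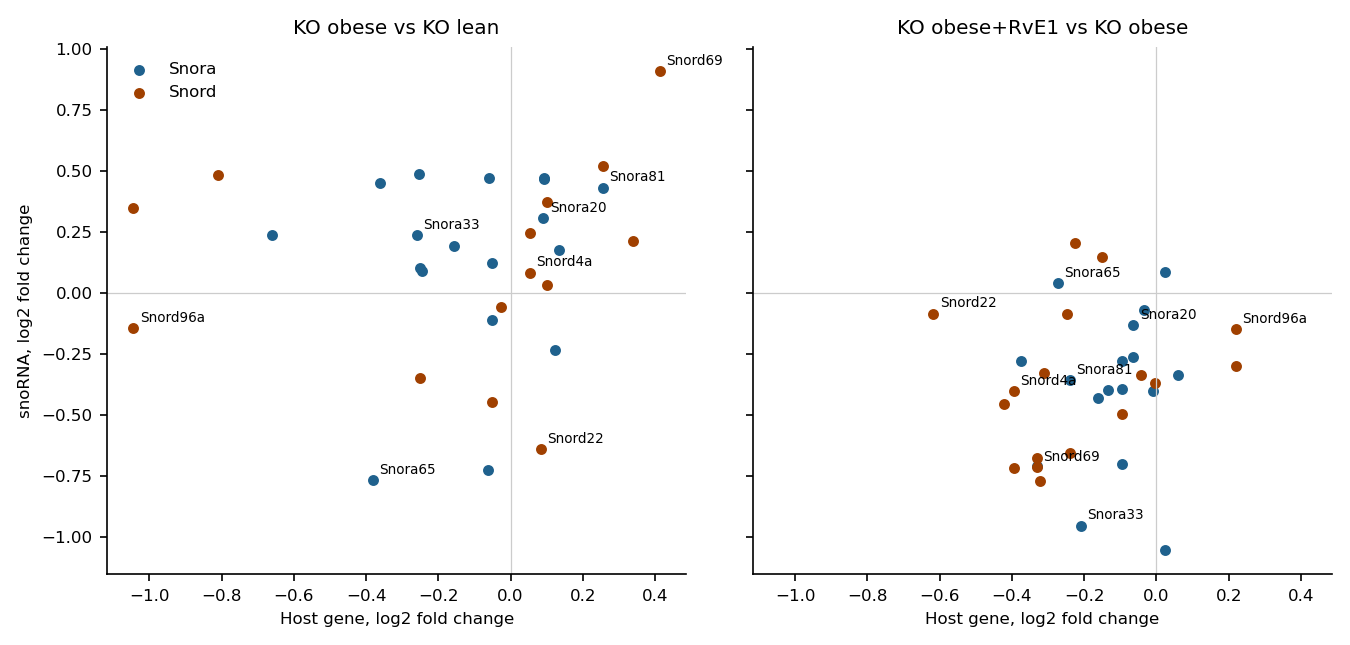
Log2 fold change of each tested snoRNA (vertical axis) against that of its host gene (horizontal axis) for diet in knockout mice (left, 32 pairs) and for RvE1 in obese knockout mice (right, 34 pairs), coloured by class. Snord96a and Snord95 stand far to the left, at -0.14 and 0.35 against -1.04 for their host Gnb2l1 (Rack1), and most pairs on the right lie below 0 on both axes (27 of 34 with the same sign).

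Genes for proteins of the snoRNA particles were called in 3 comparisons, and the values are of RNA. Between lean genotypes 1 of 5 box C/D core, 2 of 4 box H/ACA core and 2 of 15 assembly genes were called. The share of all genes called there was 6.65%. For diet in knockout mice they were 0 of 5, 1 of 4 and 2 of 15, against 10.4% of all genes. For diet in wild type mice they were 1 of 5, 0 of 4 and 0 of 15, against 3.80%. Nop58, which encodes a core protein of box C/D particles, fell in KO lean livers. It ranged over 116-236 normalized counts (median 212) against 266-457 in WT lean livers (median 319). The groups did not overlap (as for 0.745% of genes with a unique name), and the log2 fold change was -0.82 (limma adjusted p = 0.0308). With diet in wild type mice, a comparison that shares the 7 WT lean livers, its log2 fold change was -0.66 (adjusted p = 0.0654), and it was the only 1 of 5 box C/D core genes called in either comparison. Fbl, which encodes fibrillarin, had a log2 difference of -0.44 between lean genotypes (adjusted p = 0.0826), below the fold threshold. Of 4 box H/ACA core genes, Nop10 rose (0.60, adjusted p = 0.0482) and Gar1 fell (-0.70, adjusted p = 0.0458) in KO lean livers, and Nop10 fell with diet in knockout mice (-0.75, adjusted p = 0.0109), from 1193-2426 to 787-1168 normalized counts without overlap (as for 2.1% of genes with a unique name there). Of 15 assembly factors, Znhit3 rose (0.71, adjusted p = 0.0760) and Nolc1 fell (-0.73, adjusted p = 0.0340) in KO lean livers, and Znhit3 fell (-0.68, adjusted p = 0.0378) and Tcof1 rose (0.60, adjusted p = 0.0974) with diet in knockout mice, all in limma. No gene of these 3 lists was called in the other 3 comparisons.

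Other small non-coding RNAs and liver cell markers had calls in the same comparisons as the called members. These comparisons had the highest shares of all genes called (6.65% between lean genotypes and 10.4% for diet in knockout mice). They also share the 7 KO lean livers. Rmrp and Rpph1, the RNA parts of RNase MRP and RNase P, rose in KO lean livers (0.77, limma adjusted p = 0.0683, and 1.71, adjusted p = 0.0461), 2 of 3 tested. Rmrp (-0.60, adjusted p = 0.0885) and Rnu11, a minor spliceosomal RNA (-1.82, adjusted p = 0.0704), fell with diet in knockout mice, 2 of 6 tested, and 0 were called elsewhere. Of the Kupffer cell markers Clec4f, Cd5l, Vsig4, Timd4 and Csf1r, 5 of 5 were called higher in KO lean livers (median log2 fold change 0.84) and 4 of 5, all but Csf1r, lower in KO obese than in KO lean livers (median -0.90). No Kupffer marker was at 0 in any library, and none was called in the other 4 comparisons. Hepatocyte markers were called in 0 of 6 comparisons (6 genes each). In KO obese against KO lean livers, 1 of 4 endothelial (Clec4g) and 1 of 4 stellate markers (Des) were called lower, and no adipocyte marker was called in any comparison.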

How the data were processed

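Liver RNA of 42 mice (7 in each of 6 groups) was sequenced with a TruSeq Stranded total RNA protocol per the labels, which elsewhere name polyA RNA. The authors aligned read pairs to mm10 with Bowtie2 after FastQC, counted pairs with both ends mapped per gene in featureCounts (Subread), and deposited 6 tables of DESeq2 normalized counts (unit signal), each with size factors from its own 14 libraries. Bowtie2 does not align across exon junctions, so counts of spliced host transcripts can be lowered more than those of snoRNAs (versions, annotation and strand setting: not given in the sources used here). Each table also holds the authors' mean, fold change, p-value and adjusted p, which were not used.

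Values were whole multiples of 1 read per library (100% of values within 0.1 reads), so reads were recovered, and they agreed between tables. Within each table, limma 3.58.1 (lmFit, eBayes with trend, R 4.3.3, two-sided) was run on log2(normalized count + 1) for genes with a mean of at least 5 over 14 libraries, with Benjamini-Hochberg adjustment over all genes; calls needed adjusted p under 0.1 and a fold above 1.5, interactions adjusted p alone. Alternatives were pseudocounts of 0.5 and 4, no filter, TMM scaling, equal read totals, a loess correction for length and GC content, the identifier number as random block, edgeR 4.0.16, DESeq2 1.42.0, no fold threshold, and leaving out each mouse; the statistics were tested on simulated data. Members were placed by symbol in GENCODE M21 (73 matched) and the 2 others in RefSeq, and hosts listed under older symbols were matched through RefSeq synonyms. Genes with date-like names were kept out of member and overlap counts.

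The members and gene lists were chosen with earlier results of these data known. Named genes were all called members, the 2 higher and 2 lower members with the smallest adjusted p in each comparison, the 3 most read members of each class, and their hosts or inner snoRNAs; Snord22, Snord98 and the inner snoRNAs and hosts outside this rule were named after their values were seen. Mice are separate animals. Depth limits members of few reads most, and floors cover counting error only, since no molecular identifiers were used.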

Additional observations from a re-analysis of the deposited data

Results flagged for a closer look

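In 29 pairs of a named member and a group of 7 mice, the gap of the highest or lowest mouse to its nearest neighbour was compared with the group's range, and 3 mice stood apart (ratio above Dixon's 95% critical value for 7 samples); chance alone would give about 1 in 20. Scarna2 was at 0 in KO obese mouse 23L, with the next mouse at 6.47 normalized counts (ratio 0.80) and the highest at 11.4; the count is within the floor of 3 reads. Snora65 was at 17.8 in KO lean mouse 20R, with the next at 39.3 (ratio 0.657). Both values stand in the table of diet in knockout mice, and that of Snora65 lies within the KO obese range, against the direction of the called fall. Snora20 was at 119.1 in WT obese mouse 27-2R, with the next at 90.2 (ratio 0.572), in the table of RvE1 in WT obese mice.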

How the results depend on the processing

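No paired analysis was possible because the labels give no replicate numbers and compared groups shared at most 1 identifier number (23, in KO obese and KO obese+RvE1 mice). Of the 4 members called for diet in knockout mice, 2 were called under equal read totals (Snhg6 and Snhg3) and 1 with the identifier number as random block (Snhg6); without a filter 6 were called, Snord19 and Snord98 being added as higher, edgeR called 3 and DESeq2 5. Of the 4 called between lean genotypes, 0 were called with the random block, where 3 genes in all passed and 6 of 25 members and 2654 of 13031 genes had an unadjusted p under 0.05; edgeR and DESeq2 called 5 each, adding Snhg8. Leaving out 1 mouse gave 2 to 6 members in both comparisons, and 0 to 2 for the diet by genotype interaction. In the other 5 comparisons and interactions 0 members were called in every setting run. No named member's fold change was called in one direction and reversed in another setting. With equal read totals the median over all genes, on the log2 scale, was 0.143 for diet in knockout mice and -0.116 between lean genotypes. The calls went from 706 higher and 770 lower to 1324 and 351, and from 514 and 352 to 265 and 734. Genes called with the random block fell from 1476 to 750 and from 532 to 242 in the diet comparisons; number and group cannot be told apart. The length and GC correction gave 551 genes in place of 866 between lean genotypes, and DESeq2 gave 926 genes in place of 1 for the diet by genotype interaction. Leaving out 1 mouse gave 388 to 1480 genes between lean genotypes, the lowest without WT lean mouse 26R and the highest without KO lean mouse 20R. The causes were not tested. For snoRNAs of a few reads per library, depth limits every comparison.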
